A study of Mus musculus with 12 samples.

Results

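Polyamine synthesis was followed through 8 genes in cultured mouse muscle stem cells: Odc1, Oaz1, Oaz2, Azin1, Srm, Sms, Amd1 and Sat1. They were chosen by name as the core of the pathway around Odc1, out of 23586 genes in the table, and all 8 were present and passed the filter on low values. Odc1 drew attention because its difference between plasmid labels was unlike in the sorted populations, so its values are given as a description with no test, and so is that contrast for the other 7 members.

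Bulk RNA sequencing was done on muscle stem cells, which repair muscle fibres after injury, that carried the Pax3nLacZ-IRES-GFP allele in every group and were sorted by its GFP signal. Culture medium held 20% serum and basic FGF at 4 ng/mL, and transfection used 2 µg of pCR3-Six2, which carries the mouse Six2 coding DNA, or of the empty pCR3 plasmid. The groups, with 3 libraries each, were GFP-positive SIX2, GFP-positive control, GFP-negative SIX2 and GFP-negative control. Each library came from at least 50000 cells. Animal age and sex are not given in the labels, and neither is whether the 3 libraries of a group are separate cultures or mice. The p-values therefore reflect the spread among these libraries alone, and that spread may be technical.

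Polyamines (putrescine, spermidine and spermine) are small positively charged molecules that bind nucleic acids and are needed for growth and translation. ODC1 makes putrescine from ornithine, AMD1 makes the aminopropyl donor from S-adenosylmethionine, SRM uses it to make spermidine and SMS to make spermine. The antizymes OAZ1 and OAZ2 bind ODC1, deliver it to the proteasome and limit polyamine uptake, AZIN1 is an inactive relative of ODC1 that takes antizyme away from it, and SAT1 acetylates spermidine and spermine for breakdown or export. In muscle progenitors, as in other dividing cells, ODC1 activity is known to go with proliferation.

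Several of these controls are written in sequence. Antizyme messages hold a stop codon that ends the reading frame early, and polyamines promote a shift of the ribosome past it, so the level of these messages does not read antizyme protein. The site is shown for both antizymes, in GRCm38 on the plus strand, because Oaz1 is one of the members that changed and Oaz2 is its closest relative. Capitals mark the TCC codon and the TGA stop, and 28 of the 30 bases were identical.
Oaz1, chr10:80828280-80828309: cctcggtggtgcTCCTGAtgtccctcaccc
Oaz2, chr9:65686257-65686286: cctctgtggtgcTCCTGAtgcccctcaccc

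Promoters, 250 bases before to 50 after the annotated start, were taken from RefSeq on GRCm38.p6 and were found for 6 of the 8 members, not for Azin1 and Srm. They were searched on both strands for the GC box GGGCGG, the TATA box TATAAA and the E-box CACGTG, the site of MYC and its partner MAX. Overlapping matches of a motif were each counted. The 3 shown, with matches in capitals, belong to the gene with the GFP-negative control pattern (Odc1) and to a pair of members that were higher with the SIX2 label in both populations (Sat1 and Oaz1).
Odc1, chr12:17544623-17544922, plus strand: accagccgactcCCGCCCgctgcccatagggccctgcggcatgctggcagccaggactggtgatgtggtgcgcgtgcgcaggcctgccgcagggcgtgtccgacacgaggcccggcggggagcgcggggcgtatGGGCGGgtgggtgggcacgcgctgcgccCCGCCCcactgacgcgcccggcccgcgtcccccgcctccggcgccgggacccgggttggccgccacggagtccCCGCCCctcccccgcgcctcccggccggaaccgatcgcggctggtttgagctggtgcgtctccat
Sat1, chrX:155216400-155216699, minus strand: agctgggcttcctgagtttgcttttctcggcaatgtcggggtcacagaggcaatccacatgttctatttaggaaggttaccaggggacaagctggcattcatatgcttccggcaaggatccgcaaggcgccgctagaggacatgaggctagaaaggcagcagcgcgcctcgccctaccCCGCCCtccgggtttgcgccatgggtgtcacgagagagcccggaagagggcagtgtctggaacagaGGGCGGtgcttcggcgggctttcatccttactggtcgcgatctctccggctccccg
Oaz1, chr10:80826406-80826705, plus strand: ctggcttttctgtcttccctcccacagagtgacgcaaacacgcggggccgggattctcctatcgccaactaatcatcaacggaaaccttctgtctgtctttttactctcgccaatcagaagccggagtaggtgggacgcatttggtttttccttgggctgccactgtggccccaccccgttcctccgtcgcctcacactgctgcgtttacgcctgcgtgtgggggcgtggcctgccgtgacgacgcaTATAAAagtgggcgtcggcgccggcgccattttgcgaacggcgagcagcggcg
The Odc1 window was 78% G and C and held 4 GC boxes, the Sat1 window held 2 GC boxes, and the Oaz1 window held 1 TATA box and no GC box. The window of Oaz2 and 1 of the windows of Sms, members that passed no test below, also held 4 GC boxes each. Of the 7 windows of members, 5 held a GC box. Of 32851 promoters of this length, 35.7% held a GC box, 13.6% a TATA box and 7.15% an E-box. The E-box was found in 1 of the windows of Sms and in none of the windows shown, and sequence outside the windows was not searched. These matches are letters in a window and were not tested as sites.

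The plasmid and sort labels could not be read back from their own genes. Six2 had 3.38 to 28.6 normalized counts (reads of a library divided by its size factor) over all 12 libraries, and the SIX2 and control groups overlapped in both populations. With the control label, Pax3 spanned 59.9 to 94.1 where GFP was positive and 68.2 to 73.2 where it was negative, so these groups overlapped too, and it had 3.90 to 19.3 in the 6 libraries labelled SIX2. Every direction below is therefore one between labels. Depth was 12438885 to 47299937 reads per library. In GFP-positive cells it was 12632428 to 15492340 with the SIX2 label and 31295165 to 47299937 with the control label. In GFP-negative cells it was 34048869 to 40182810 with the SIX2 label and 12438885 to 33151990 with the control label. The labels thus did not overlap in depth in either population, and the part of depth in the results was not tested. The 7 muscle stem cell and myoblast markers were all detected and summed to 184398 to 205538 normalized counts in GFP-positive SIX2, 214429 to 234732 in GFP-positive control, 144387 to 168074 in GFP-negative SIX2 and 212003 to 241220 in GFP-negative control libraries, most of it Des. This sum was thus lower with the SIX2 label in both populations, but its single markers did not all go that way. Des, Myod1 and Itga7 had lower means with the SIX2 label in both populations, and Cdh15 in GFP-negative cells only. Pax7, Myf5 and Vcam1 had higher means in both. Myf5 had 2995 against 1754 in GFP-positive and 4042 against 1618 in GFP-negative cells. Des had 135387 against 165778 in GFP-positive and 105967 against 168413 in GFP-negative cells. Of other cell types, 4 of 5 fibro-adipogenic markers summed to 69.7 to 85.7, 23.0 to 74.2, 73.8 to 84.2 and 38.5 to 53.6 in the same order of groups, with Dcn at 0 in all groups but GFP-negative SIX2. Endothelial markers (4 of 5) summed to at most 31.0 and leukocyte markers (4 of 5) to at most 111.4. The 5 pericyte and smooth muscle markers, mostly Acta2, summed to 51750 to 56571, 53533 to 56543, 48578 to 51417 and 53348 to 59288 in that order of groups. Schwann markers (4 of 5), almost all Ncam1, summed to 33425 to 35666, 43967 to 45991, 31598 to 34786 and 38308 to 41748. Lum, Tie1, Ptprc and Sox10 were not among the genes listed. The part of these shifts in the results below was not tested. In bulk samples, fewer cells of a type and less RNA per cell cannot be told apart. GFP-negative control libraries were highest, by a small margin, in genes with a GC-rich stretch. In all, 1459 tested genes had a 100-base window with at least 84% G and C. Their median log2 deviation from the 12-library mean was 0.0823 to 0.127 in those libraries and −0.107 to 0.0674 in the other groups. For the 1719 tested genes with the least GC-rich windows, it was −0.0829 to −0.0313 in GFP-negative control and 0.0879 to 0.136 in GFP-negative SIX2 libraries. In GFP-positive libraries it was −0.015 to 0.0643.

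Odc1 (ENSMUSG00000011179.8, GRCm38 chr12:17544794-17551505, plus strand), the enzyme that opens the pathway, was high only in GFP-negative libraries labelled control, among the 4 groups. GFP-positive libraries held 1459.5, 1157.5 and 1001 normalized counts of it with the SIX2 label, against 1000.5, 1118 and 1419 with the control label. GFP-negative libraries held 1002, 1081.5 and 1314 with the SIX2 label, against 3284, 2839 and 3226 with the control label. The lowest GFP-negative control library was thus above the highest library of any other group, and the other 3 groups overlapped one another. The means were 1133 ± 162 in GFP-negative SIX2 and 3116 ± 242 in GFP-negative control libraries (SD, n = 3 each), a log2 difference of −1.47 ± 0.15 SE. In GFP-positive cells they were 1206 ± 233 with the SIX2 label and 1179 ± 216 with the control label, a log2 difference of 0.03 ± 0.15 SE.

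Between GFP-positive and GFP-negative libraries, the log2 difference of Odc1 was −1.41 ± 0.15 SE with the control label and 0.08 ± 0.15 SE with the SIX2 label. The first of these and the GFP-negative plasmid comparison rest on the same 3 GFP-negative control libraries, so they are not separate observations. The plasmid-label difference in GFP-negative minus that in GFP-positive libraries was −1.50 ± 0.21 SE for Odc1. For the other members this value lay between −0.16 (Oaz2) and 0.27 (Sat1), with Amd1 at 0.24, Azin1 at 0.16, Sms at −0.12, Srm at −0.10 and Oaz1 at −0.03. The Odc1 transcript has a window with 86.0% G and C, at percentile 95.1 of the tested genes, and GC-rich genes moved with the same libraries. The windows of Srm (85.0%, percentile 93.3) and Sms (84.0%, percentile 91.2) were nearly as GC-rich, with the −0.10 and −0.12 given above. With the trend over GC-rich windows removed from each library, the GFP-negative plasmid difference of Odc1 was −1.39 and its difference between populations labelled control −1.27. The part of GC content in the Odc1 values was not tested.

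**Figure D1:**
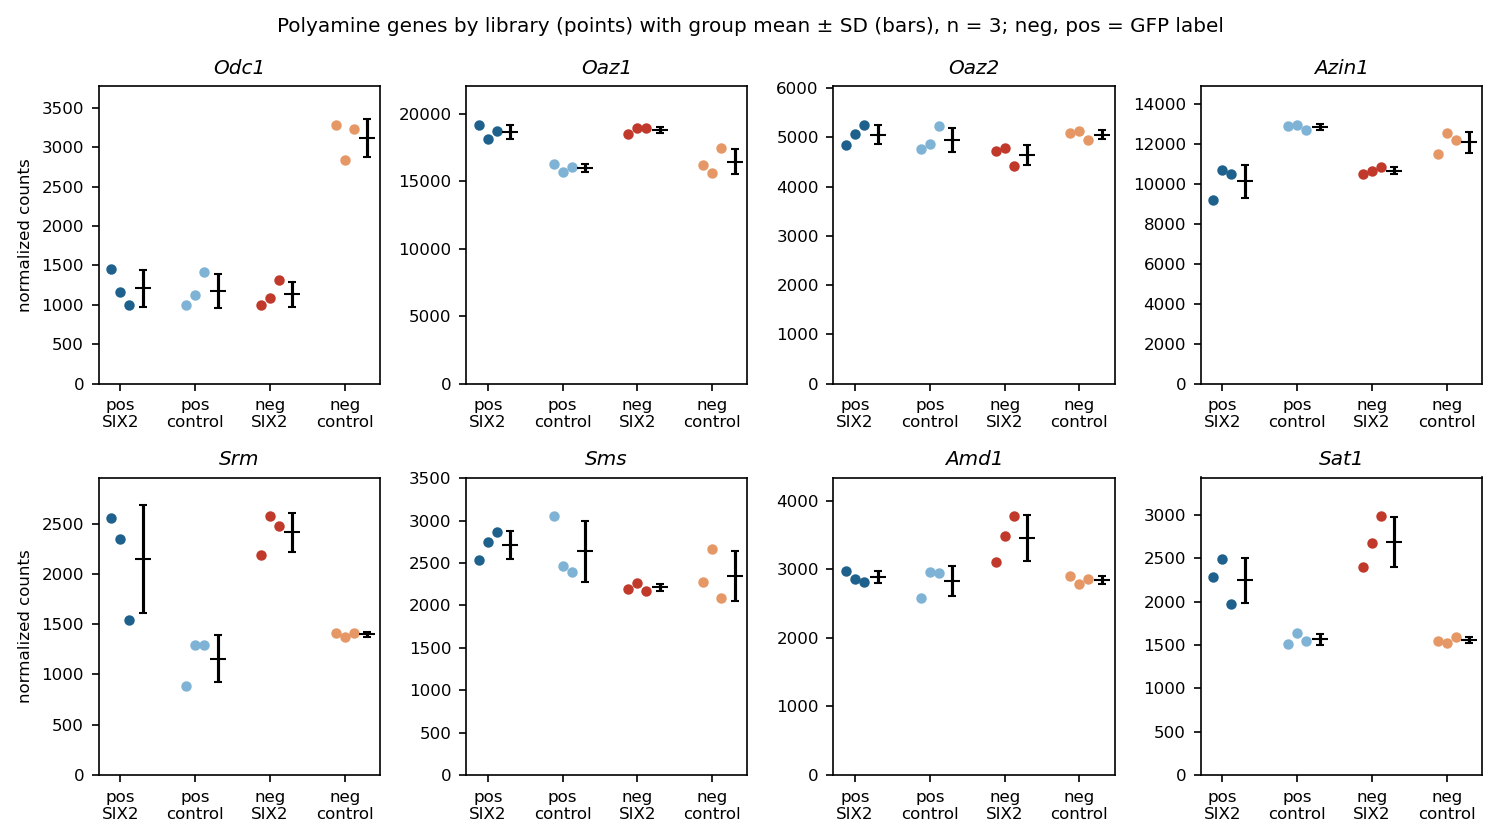
Normalized counts (vertical axes, linear from 0) of the 8 genes in the 12 libraries, by group, with points for libraries and bars for the group mean ± SD (n = 3). Odc1 is at 2839 to 3284 in GFP-negative control libraries and at 1000.5 to 1459.5 elsewhere, while Srm, Sat1 and Oaz1 are higher in both groups labelled SIX2.

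Of the synthesis enzymes tested (Srm, Sms and Amd1), spermidine synthase had the largest change. Srm (ENSMUSG00000006442.10, chr4:148591503-148594993) had 2551, 2352 and 1537 normalized counts in GFP-positive SIX2 libraries, against 887, 1293 and 1292 in GFP-positive control libraries. It had 2190, 2573 and 2472 in GFP-negative SIX2 libraries, against 1414, 1368 and 1415 in GFP-negative control libraries. Every library labelled SIX2 was above every library labelled control, with GFP-positive SIX2 library 3 the nearest to the controls. With the SIX2 label, the log2 level of Srm rose by 0.88 ± 0.17 SE in GFP-positive cells (limma-trend adjusted p = 0.00248) and by 0.78 ± 0.17 SE in GFP-negative cells (adjusted p = 0.00425). Where Odc1 was lower with the SIX2 label, in GFP-negative cells, Srm was thus higher.

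Sms (chrX:157443855-157492287), which makes spermine, did not pass the test in any comparison. GFP-positive libraries held 2531, 2746 and 2859 normalized counts of Sms with the SIX2 label, against 3050, 2465 and 2392 with the control label. GFP-negative libraries held 2198, 2262 and 2173 with the SIX2 label, against 2279, 2663 and 2085 with the control label, and the labels overlapped in both populations. Its log2 difference by plasmid label was 0.05 ± 0.10 SE in GFP-positive cells (limma-trend adjusted p = 0.785) and −0.08 ± 0.10 SE in GFP-negative cells (adjusted p = 0.625). Amd1 (chr10:40287458-40302186), the source of the aminopropyl group, had 2980, 2866 and 2814 normalized counts in GFP-positive SIX2 and 2582, 2962 and 2945 in GFP-positive control libraries, which overlapped. In GFP-negative cells it had 3112, 3480 and 3774 with the SIX2 label and 2902, 2789 and 2862 with the control label, which did not overlap. The log2 rise there was 0.27 ± 0.08 SE (limma-trend adjusted p = 0.0184), against 0.03 ± 0.08 SE in GFP-positive cells (adjusted p = 0.822), and the difference between these was not tested. The most GC-rich window of Amd1 had 56.0% G and C (percentile 2.91), and its GFP-negative difference was 0.08 (adjusted p = 0.458) with the trend over GC-rich windows removed and 0.13 (adjusted p = 0.198) with the trend over whole-transcript GC removed. Its call also ended without GFP-negative SIX2 library 2 (adjusted p = 0.0576) or 3 (0.0808), or without GFP-negative control library 2 (0.0653). The reads of Amd1 and of its near-identical copy Amd2, which had at most 35.6 normalized counts, may be split by the counting, as may those of Sms and its pseudogene Sms-ps (at most 68.5) and of Oaz1 and Oaz1-ps (at most 211).

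Of the genes that regulate ODC1 protein, the antizyme gene Oaz1 and the antizyme inhibitor gene Azin1 went opposite ways, and the antizyme gene Oaz2 was not called. Oaz1 (chr10:80826656-80829290) had 19166, 18122 and 18692 normalized counts in GFP-positive SIX2 libraries, against 16264, 15664 and 16056 in GFP-positive control libraries. It had 18516, 18942 and 18898 in GFP-negative SIX2 libraries, against 16224, 15631 and 17422 in GFP-negative control libraries. The groups did not overlap in either population, and the rise was small, with log2 differences of 0.22 ± 0.05 SE in GFP-positive (limma-trend adjusted p = 0.00693) and 0.20 ± 0.05 SE in GFP-negative cells (adjusted p = 0.012). Without GFP-negative control library 2 the GFP-negative difference was 0.16 (adjusted p = 0.0674).

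Azin1 (chr15:38487427-38519266) had 9180, 10702 and 10513 normalized counts in GFP-positive SIX2 libraries, against 12891, 12953 and 12670 in GFP-positive control libraries. It had 10473, 10635 and 10842 in GFP-negative SIX2 libraries, against 11483, 12523 and 12207 in GFP-negative control libraries. All 6 libraries labelled SIX2 were below all 6 labelled control. On the log2 scale Azin1 fell by 0.34 ± 0.06 SE in GFP-positive cells (limma-trend adjusted p = 0.00129) and by 0.18 ± 0.06 SE in GFP-negative cells (adjusted p = 0.0432). The GFP-negative call ended under 12 of 25 alternatives, with adjusted p of 0.0506 to 0.174. These were no filter, TMM and quantile scaling, edgeR (0.0523), and leaving out any GFP-negative SIX2 library, GFP-negative control library 2 or 3, or any GFP-positive control library. An annotated antisense transcript shares exon bases with Azin1. Since no strand-marking step is described, reads that lie within the shared bases cannot be told apart by strand. Oaz2 (chr9:65668001-65690300) had 4413 to 5256 normalized counts over all 12 libraries and did not pass the test in any comparison, with log2 differences by plasmid label of 0.03 ± 0.06 SE in GFP-positive (limma-trend adjusted p = 0.759) and −0.12 ± 0.06 SE in GFP-negative cells (adjusted p = 0.137), where the groups did not overlap.

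Sat1 (chrX:155213132-155216449), which starts polyamine breakdown, had the smallest adjusted p of the 7 members in GFP-negative cells. It had 2279, 2488 and 1970 normalized counts in GFP-positive SIX2 libraries, against 1515, 1635 and 1545 in GFP-positive control libraries. It had 2404, 2672 and 2984 in GFP-negative SIX2 libraries, against 1544, 1524 and 1595 in GFP-negative control libraries. Neither population had an overlap between the labels. The log2 level of Sat1 rose by 0.52 ± 0.09 SE in GFP-positive (limma-trend adjusted p = 0.00148) and by 0.78 ± 0.09 SE in GFP-negative cells (adjusted p = 6.16e-05).

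In all, 4 of the 7 members other than Odc1 passed the test by plasmid label in GFP-positive cells, 3 higher (Srm, Sat1 and Oaz1) and 1 lower (Azin1), and 5 of 7 did in GFP-negative cells, where Amd1 was higher as well. Over all 14580 genes tested, 23.3% passed in GFP-positive cells (12.1% higher and 11.2% lower) and 27.9% in GFP-negative cells (13.6% higher and 14.3% lower). The median log2 difference of the 7 members was 0.05 in GFP-positive and 0.20 in GFP-negative cells, beside −0.01 and 0.00 over all genes tested. The GFP-negative count was 2 without GFP-negative control library 2, and 3 without GFP-negative SIX2 library 2 or 3.

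**Figure D2:**
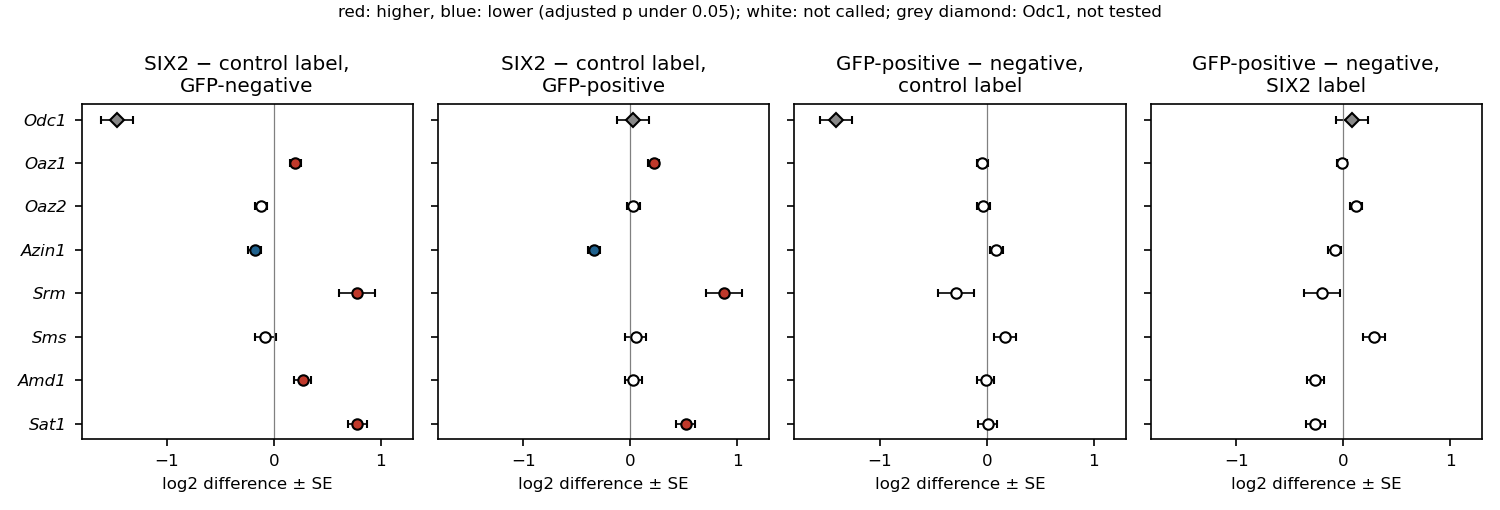
Log2 differences ± SE (horizontal axes) of the 8 genes in the 4 comparisons, first-named minus second-named group. Srm, Sat1 and Oaz1 lie right of 0 and Azin1 left of 0 in both plasmid comparisons, Odc1 is far left only in the comparisons that hold the GFP-negative control libraries, and no tested member was called between the GFP labels.

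Between GFP-positive and GFP-negative libraries, none of the 7 members passed the test under either label. With the control label, the background was 3.48% of all genes (0.919% higher and 2.56% lower), limma-trend called 0 of 7, edgeR and DESeq2 called 0, and 0 had an unadjusted p under 0.05. With the SIX2 label, the background was 0.192% (0.0137% higher and 0.178% lower), all 3 tools called 0 of 7, and 3 had an unadjusted p under 0.05. These were Sms, with 2712 ± 166 normalized counts where GFP was positive and 2211 ± 45.9 where it was negative (SD, n = 3 each, log2 0.29 ± 0.10 SE), and Amd1 and Sat1, with log2 differences of −0.26 ± 0.08 and −0.26 ± 0.09 SE. Their adjusted p was 0.251, 0.19 and 0.264 in limma-trend. The share of all genes with an unadjusted p under 0.05 was not counted. The backgrounds given are at adjusted p, so these 3 genes cannot be set against them. Both backgrounds moved with the libraries used. The 507 genes called with the control label became 68 to 820 with single libraries left out and 298 to 1087 under the other alternatives. For the SIX2 label, 28 genes became 13 to 60 and 19 to 294.

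Per kilobase of exon, the antizyme message far exceeded that of its target. Oaz1 led in every group with 7295 ± 204 normalized counts per kb in GFP-positive SIX2, 6253 ± 119 in GFP-positive control, 7344 ± 91.5 in GFP-negative SIX2 and 6421 ± 357 in GFP-negative control libraries. Azin1 (1620 to 2052 as group means) and Oaz2 (1552 to 1692) followed, and these neighbours did not keep one order over the groups. Odc1 had 354 ± 68.4, 346 ± 63.4 and 333 ± 47.5 per kb in GFP-positive SIX2, GFP-positive control and GFP-negative SIX2 libraries, below the group means of Sms (368 to 451), and 915 ± 71.0 in GFP-negative control libraries, where Sms had 390 ± 48.9. The ratio of Oaz1 to Odc1 per kb was 21.1 ± 3.69 in GFP-positive SIX2, 18.45 ± 3.29 in GFP-positive control, 22.35 ± 2.85 in GFP-negative SIX2 and 7.03 ± 0.40 in GFP-negative control libraries (SD, n = 3 each). The ratio of Srm to Odc1 was 3.77 ± 0.53, 2.10 ± 0.32, 4.58 ± 0.53 and 0.959 ± 0.0586 in the same order of groups. Since both ratios hold Odc1, they are descriptions too. They also depend on the length used, here all annotated exon bases (3405 for Odc1 and 2558 for Oaz1). The longest transcripts have 2208 and 2526 bases, which would lower the ratio of Oaz1 to Odc1 in every group.

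**Figure D3:**
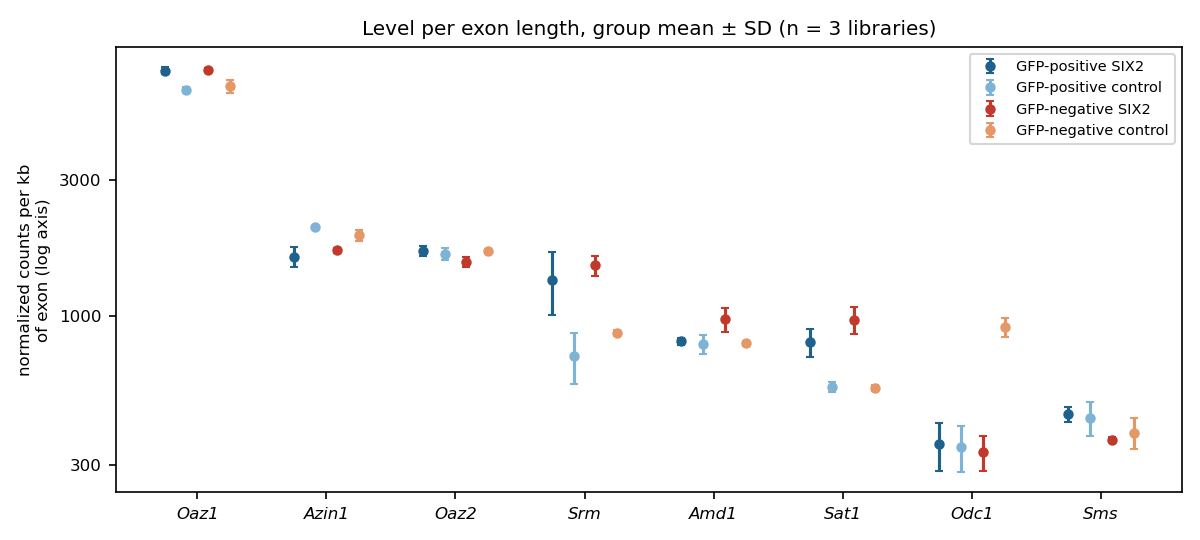
Normalized counts per kb of exon (vertical log axis) of the 8 genes, ordered by their mean, with group means ± SD (n = 3). Oaz1 is at 6253 to 7344, and Odc1 is near Sms in 3 groups and at 915 in GFP-negative control libraries.

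Around these members, a wider list of 36 genes of the pathway was read, of which 31 were tested. Satl1 was not among the genes listed, and Oaz3, Arg2, Agmat and Slc12a8 were below the filter. In GFP-positive cells 9 were higher and 2 lower with the SIX2 label, 35.5% against 23.3% of all genes, and in GFP-negative cells 8 were higher and 4 lower, 38.7% against 27.9%. The median log2 difference was 0.15 in GFP-positive and 0.04 in GFP-negative cells, and the called genes went both ways. The GFP-positive count was 7 without GFP-positive SIX2 library 1 or without GFP-positive control library 3.

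Among genes of ornithine supply and methylthioadenosine salvage, 3 were higher in both populations (Oat, Mtap and Enoph1). Oat, which links ornithine to glutamate and proline, had 2502 ± 98.3 in GFP-positive SIX2 against 1310 ± 45.7 normalized counts in GFP-positive control libraries (log2 0.93 ± 0.08 SE, limma-trend adjusted p = 4.47e-06), and 2689 ± 274 in GFP-negative SIX2 against 1686 ± 28.9 in GFP-negative control libraries (0.67, adjusted p = 5.08e-05). Mtap, which clears the methylthioadenosine that SRM and SMS release, rose by 0.47 in GFP-positive and 0.54 in GFP-negative cells (limma-trend adjusted p = 0.00217 and 0.00064), and Enoph1, further along the same salvage route, by 0.53 and 0.37 (0.00119 and 0.00923). Adi1, a later enzyme of that route, fell by 0.23 in GFP-negative cells (adjusted p = 0.0317), losing the call with quantile scaling or without any 1 of the 6 GFP-negative libraries, and had −0.02 in GFP-positive cells. Of the 5 genes of the methionine cycle, Ahcy, which clears S-adenosylhomocysteine, rose by 0.63 in GFP-positive cells (adjusted p = 0.00033), and none was called in GFP-negative cells.

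Genes that use or move polyamines gave both directions. Eif5a, the translation factor whose lysine is turned into hypusine with spermidine, had 35045 ± 1131 in GFP-positive SIX2 against 28820 ± 1476 normalized counts in GFP-positive control libraries (log2 0.28, limma-trend adjusted p = 0.00372), and 36681 ± 2441 in GFP-negative SIX2 against 28322 ± 725 in GFP-negative control libraries (0.37, adjusted p = 0.000463). Its relative Eif5a2 rose by 0.72 in GFP-positive and 0.83 in GFP-negative cells (adjusted p = 0.0139 and 0.00508), and Dhps, the enzyme that transfers the spermidine part, by 0.35 in GFP-positive cells (adjusted p = 0.0191). In GFP-negative cells Dhps had 0.03 (adjusted p = 0.851), and the difference was not tested. Without GFP-positive control library 3, Eif5a2 (adjusted p = 0.0582) and Dhps (0.0535) lost their calls in GFP-positive cells, and Dhps did so too without GFP-positive control library 2 (0.0607) or GFP-positive SIX2 library 1 (0.0581). Smox, which oxidizes spermine back to spermidine, fell by 0.38 in GFP-positive and by 0.49 in GFP-negative cells (limma-trend adjusted p = 0.0029 and 0.000367), opposite to Sat1. The polyamine transporter Atp13a3 fell by 0.40 in GFP-positive and by 0.44 in GFP-negative cells (adjusted p = 0.0169 and 0.00898). Its GFP-positive call ended with quantile scaling (0.0572), without GFP-positive SIX2 library 1 (0.0698) or without GFP-positive control library 3 (0.0644), and its GFP-negative call with the trend over GC-rich windows removed (0.0527). Its lysosomal relative Atp13a2 fell by 0.80 in GFP-negative cells (adjusted p = 0.00734) and had 0.17 in GFP-positive cells (adjusted p = 0.592). Slc3a2, a shared chain of amino acid transporters, rose by 0.31 in GFP-negative cells (limma-trend adjusted p = 0.00193). In GFP-positive cells Slc3a2 had 0.16 (adjusted p = 0.0761).

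Myc, a transcription factor known to activate Odc1, had 1324, 1189 and 951 normalized counts in GFP-positive SIX2 libraries, against 910, 843 and 661 in GFP-positive control libraries. It had 1322, 1431 and 1649 in GFP-negative SIX2 libraries, against 1039, 863 and 741 in GFP-negative control libraries. The log2 rise of Myc was 0.52 ± 0.16 SE in GFP-positive and 0.74 ± 0.16 SE in GFP-negative cells (limma-trend adjusted p = 0.0272 and 0.00309), and the GFP-positive call ended without GFP-positive SIX2 library 1 (adjusted p = 0.101) or 2 (0.0805) or GFP-positive control library 3 (0.108), and with only the compared groups in the fit (0.0533). The mean of Myc was 881 in GFP-negative control libraries, which had the most Odc1, and 804 in GFP-positive control libraries. It was 1154 in GFP-positive SIX2 and 1467 in GFP-negative SIX2 libraries, and a link between Myc and Odc1 was not tested. Mycn was near the floor, with 10.7, 19.5 and 8.14 in GFP-positive SIX2 against 0, 6.64 and 0 normalized counts in GFP-positive control libraries. The GFP-negative SIX2 libraries had 17.9, 15.8 and 11.4, against 0, 2.38 and 2.81 normalized counts in GFP-negative control libraries. It counts among the genes called higher in both, but lost the call under 8 of 24 alternatives in GFP-positive and 5 of 24 in GFP-negative cells, edgeR among them in both, and its fitted difference moved with the pseudocount.

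Between the GFP labels, 2 genes of the wider list were called with the control label, both lower in GFP-positive libraries, Oat (log2 −0.36, limma-trend adjusted p = 0.0252) and Ahcy (−0.41, adjusted p = 0.031). They were 6.45% of the 31 genes tested, beside 3.48% of all genes (2.56% lower), a share that moved with single libraries. With the SIX2 label limma-trend, edgeR and DESeq2 called 0 of the list, beside 0.192% of all genes in limma-trend, and 6 had an unadjusted p under 0.05. That background is at adjusted p, and the share of all genes at the unadjusted threshold was not counted. The 2 calls rest on single libraries: 0 were left without GFP-positive control library 1 or 2 or without GFP-negative control library 1 or 2, 1 without GFP-negative control library 3 or GFP-negative SIX2 library 2, and there were 5 without GFP-positive control library 3.

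**Figure D4:**
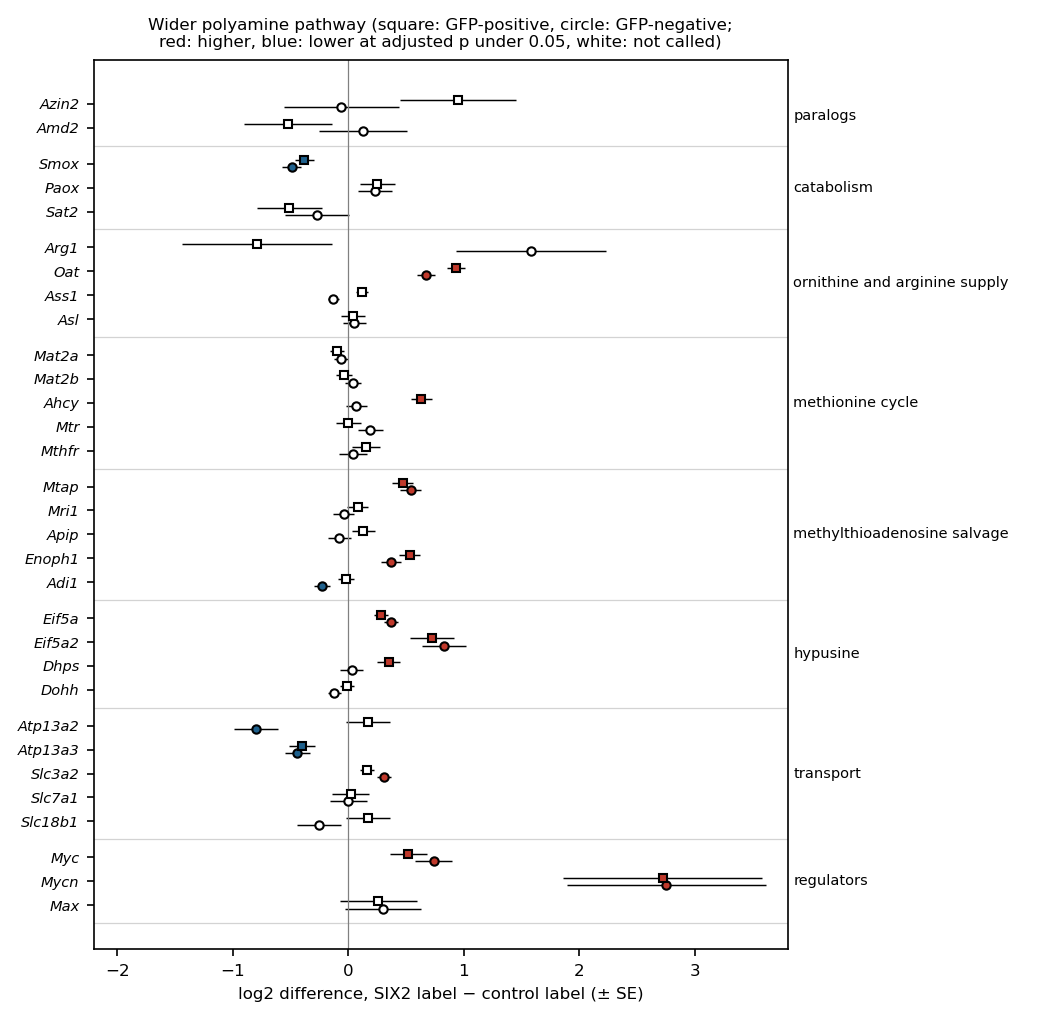
Log2 difference between libraries labelled SIX2 and control (horizontal axis, ± SE) of the 31 tested genes of the wider list, by sub-list, with squares for GFP-positive and circles for GFP-negative cells. Oat, Mtap, Enoph1, Eif5a, Eif5a2, Myc and Mycn are higher and Smox and Atp13a3 lower in both populations.

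The pattern of Odc1 was also seen in genes outside the pathway, while no other member correlated closely with it. Over the 12 libraries, the highest Pearson r with Odc1 among 10757 named genes with a mean of at least 50 was that of Slain2, a microtubule regulator (0.99), followed by the choline transporter gene Slc44a1 (0.99), Eri3, Bri3 and Ube2j2 (0.98 each) and Ptprs, Kifbp, Marchf2, Gpc1 and Capns1 (0.97 each). The r values describe the contrast of 3 libraries with 9, since the libraries form groups. Each of the 10 had its highest mean in GFP-negative control libraries, above the next group by 1.56 times (Eri3) to 3.84 times (Slain2). Gpc1, the proteoglycan glypican 1, had means of 5746 in GFP-positive SIX2, 6914 in GFP-positive control, 5051 in GFP-negative SIX2 and 17234 in GFP-negative control libraries. In all, 118 genes had an r of at least 0.9. Among members, the highest r was 0.30 (Oaz2) and the lowest −0.49 (Sat1). The highest window GC content of the 10 genes lay at a median percentile of 87.4 of the tested genes, with Slc44a1 at 19.2 and Gpc1 at 95.1. GC-rich genes were higher in the same libraries, as given above, and the part of GC content in the pattern of the 10 genes was not tested.

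**Figure D5:**
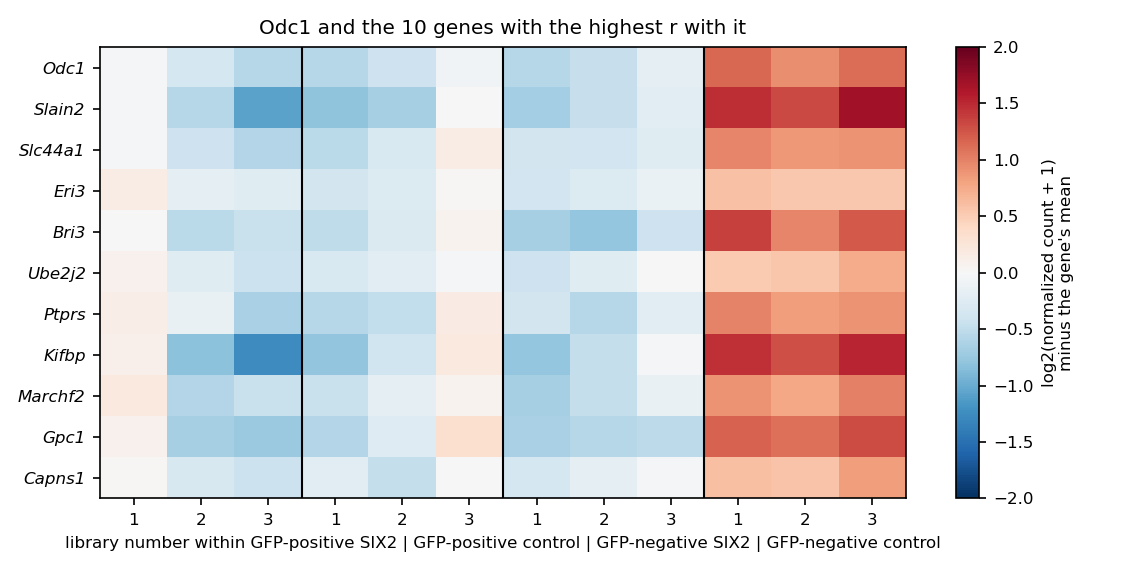
Odc1 and the 10 genes with the highest r with it (rows) in the 12 libraries (columns), coloured by log2(normalized count + 1) minus the gene's mean over all libraries. The 3 GFP-negative control columns are the highest in every row, since this pattern chose the genes.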

How the data were processed

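Cells, cultures and plasmids were as the labels' protocols give them; complementary DNA was made by SMART-Seq2 and fragmented with Tn5, per the labels' protocols. STAR 2.7.11a, RSEM 1.3.3, FastQC 0.12.1, MultiQC 1.19, DESeq2 1.42.0 and GRCm38 appear, per the submitters' processing notes, among the tools and builds; settings are not given in the sources used here. The deposited signal is a normalized count per gene, which the values show to be whole reads divided by 1 size factor per library. Divided by the smallest value of its library, 100% of values came out whole to within 0.0001, which recovers 12438885 to 47299937 reads per library.

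Groups came from sample titles. limma-trend (limma 3.58.1, R 4.3.3) was fitted on log2(value + 1) to 4 group means over 12 libraries, with two-sided moderated tests and Benjamini-Hochberg adjustment over the 14580 genes that reached 10 normalized counts in 3 or more libraries, at a threshold of 0.05. Fold changes on this scale understate the change of low genes. Members and lists were chosen with earlier results of these data known. Genes of the wider list were named where called, up to 3 per sub-list, direction and comparison by smallest p, and genes like Odc1 by the 10 highest r. The fit was also run on simulated reads, with far fewer changed genes than were called here by plasmid label, and no result rests on that run. Alternatives were other pseudocounts (0.5 and 10), filters (none and 50), TMM and quantile scaling, the recovered reads tested with the quasi-likelihood method of edgeR 4.0.16 and with DESeq2 1.42.0, only the compared groups, the replicate number as a block, GC trends removed (that over 100-base windows was added after the data were seen), and each library left out. Positions and exon lengths are from GENCODE M21 on GRCm38, which matched 99.8% of identifiers. No replicate pair was closer than sampling noise (chi-square per degree of freedom 7.71 to 49.4). Figures were drawn with matplotlib 3.10.9.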

Additional observations from a re-analysis of the deposited data

Results flagged for a closer look

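Ass1, Ahcy, Dhps and Atp13a2 of the wider pathway list had differences in opposite directions, without overlap, between populations or labels. They were picked for this, and the share of all genes with such a pattern was not counted. None of the differences between effects was tested. Of the single comparisons behind them, only that of Ahcy between GFP labels with the control label was called (limma-trend adjusted p = 0.031). The others had adjusted p of 0.0923 (Ass1) to 0.809 (Dhps). Ass1, which makes argininosuccinate, was higher with the SIX2 label in every GFP-positive library (11642 ± 409 against 10684 ± 319 normalized counts) and lower in every GFP-negative library (10567 ± 458 against 11538 ± 341), a difference between the log2 effects of −0.25 (GFP-negative minus GFP-positive). The same 4 groups read by GFP label give −0.25 again (control label minus SIX2 label). Read that way, GFP-positive libraries were below GFP-negative ones with the control label and above them with the SIX2 label for Ahcy (difference −0.56), Dhps (−0.32) and Atp13a2 (−0.97). For Atp13a2 the SIX2 label gave 253.5 ± 56.4 with GFP positive and 185 ± 10.8 with GFP negative, and the control label gave 227 ± 60.5 with GFP positive and 324.5 ± 27.9 with GFP negative (mean ± SD, n = 3 each).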

How the results depend on the processing

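By plasmid label, Srm and Sat1 kept their direction and call under all 25 alternatives in both populations (log2 0.70 to 1.10 and 0.44 to 0.61 in GFP-positive, 0.73 to 0.95 and 0.68 to 0.86 in GFP-negative cells), and the difference of the Odc1 plasmid-label differences between populations stayed between −1.64 and −1.35. The count of the 7 members called was 4 throughout in GFP-positive cells, 2 to 5 in GFP-negative cells with each library left out in turn, and 0 throughout between GFP labels. The wider list had 7 to 11 calls in GFP-positive cells with single libraries left out, without GFP-positive SIX2 library 1 or GFP-positive control library 3 the lowest. Between GFP labels under the control label, its 2 calls became 0 to 5 with single libraries left out: 0 without GFP-positive control library 1 or 2 or GFP-negative control library 1 or 2, 1 without GFP-negative control library 3 or GFP-negative SIX2 library 2, and 5 without GFP-positive control library 3. They became 1 with quantile scaling, with only the compared groups, with the replicate block, and with the GC trend removed and the replicate block. Same-numbered libraries correlated at −0.203 to 0.053 in their deviations from group means, so the numbers were not taken as pairs. Libraries with unlike numbers reached 0.169 (GFP-positive SIX2 library 1 with GFP-positive control library 3). Whether any libraries share a mouse or culture cannot be told from these values. The replicate block moved no count of the 7 members.

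Signs turned only for differences that were not called, and these were near 0 apart from Srm under the SIX2 label (log2 −0.20 ± 0.17 SE). Between GFP labels under the control label, Oaz1 had 0.01 with the GC trend removed (also with the replicate block) and −0.07 to 0.01 with single libraries left out, Amd1 had 0.00 with quantile scaling and −0.05 to 0.05 with single libraries left out, and Sat1 had −0.01 with the GC trend removed (also with the replicate block), −0.03 with the GC-rich window trend removed, and −0.02 to 0.03 with single libraries left out. Under the SIX2 label, Azin1 had 0.04 with the GC trend removed (also with the replicate block), and with single libraries left out Oaz1 had −0.03 to 0.01 and Srm −0.34 to 0.03. By plasmid label, Sms had 0.03 with the GC-rich window trend removed and −0.16 to 0.02 with single libraries left out in GFP-negative cells, and −0.02 to 0.16 in GFP-positive cells, where Amd1 had −0.03 to 0.07. The cause of these shifts was not tested.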
